A study of Mus musculus with 16 samples.

Results

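NMDA receptors are glutamate-gated cation channels built from 4 subunits, and mice carry 7 genes for them: *Grin1* (GluN1), *Grin2a*, *Grin2b*, *Grin2c* and *Grin2d* (GluN2A to GluN2D), and *Grin3a* and *Grin3b* (GluN3A and GluN3B). GluN1 is needed in every receptor and binds the co-agonist glycine or D-serine. GluN2 subunits bind glutamate and set much of the channel's kinetics, whereas GluN3 subunits bind glycine and lower calcium permeability. *Grin3b* RNA is enriched in motor neurons, the cells lost in amyotrophic lateral sclerosis. The genes were chosen by symbol, and 7 of 7 were among the 18167 genes measured.

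Spinal cord RNA was compared between male mice of 2 transgenic lines, each carrying human *PFN1* under the MoPrP.Xho prion promoter vector, which is active in many cell types. Mutant mice (Tg(Prnp-PFN1*G118V)838Kiaei) carried the G118V change and control mice (Tg(Prnp-PFN1)850Kiaei) the unchanged human gene, both on C57BL/6N, so the controls were transgenic as well. Young wild-type (WY) and young mutant (MY) mice, 3 of each, were 50 days old. The 5 old mutant (MO) mice were taken at end stage, when they could no longer right themselves, at 198, 190, 245, 224 and 175 days for MO1 to MO5. The old wild-type (WO) mice were 190 days old (WO1 to WO3) or 294 days old (WO4 and WO5). MO4, MO5, WO4 and WO5 were the mice of library batch 2, and all others belonged to batch 1. In batch 2 the WO mice were therefore older than the MO mice, and genotype and age cannot be told apart there. Group means of log2(1 + FPKM) were subtracted to give each log2 fold change, a scale that understates ratios for genes with low FPKM.

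1 library did not match its label. All mice were labelled male, yet *Xist* in MO5 was 3.21 in log2(1 + FPKM) and at most 0.37 in every other mouse. *Ddx3y* was 1.95 in MO5 and at least 4.06 elsewhere, *Eif2s3y* 1.82 against at least 3.66, *Kdm5d* 1.07 against at least 2.16 and *Uty* 1.05 against at least 2.03. The tests of the NMDA receptor genes against MO mice are therefore given with MO5 and without it, as are the GluN2 shares in MO mice. Values with the length trend removed, orders of level over all mice and likeness are given with all 16 mice. Spinal tissue was marked in every library by 11 of 11 *Hox* genes, with a summed FPKM of 195 to 245. The 4 forebrain markers measured summed to 1.78 to 2.65 FPKM, with *Tbr1* and *Emx1* near 0, and the part of tissue position in the results was not tested.

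In MY vs. MO, 5 of the 7 genes fell (FDR ≤ 0.05, limma): *Grin1*, *Grin2a*, *Grin2d*, *Grin3a* and *Grin3b*. Of all genes, 12.5% fell and 13.1% rose in that comparison. In WO vs. MO, 4 of the 7 fell, *Grin1*, *Grin2c*, *Grin2d* and *Grin3b*, beside 12.9% of all genes that fell and 15.0% that rose. No NMDA receptor gene rose in either comparison, and the median log2 fold change of the 7 was -0.30 in MY vs. MO and -0.32 in WO vs. MO. Without MO5 the counts were 6 and 5 and the medians -0.32 and -0.35, beside 11.7% and 12.1% of all genes that fell and 12.0% and 13.8% that rose, with *Grin2b* added in MY vs. MO and *Grin2a* in WO vs. MO. The 2 comparisons share the MO mice, so the second is not an independent repeat of the first. Fold values here are ratios of 1 + FPKM. In the main fit with all mice, only *Grin3b* was differentially expressed, that is, it also changed at least 1.5-fold, and it did so in both. Without MO5 *Grin2a* was differentially expressed as well in MY vs. MO (1.58-fold). With all mice, *Grin2a* also reached this in MY vs. MO with a pseudocount of 0.1 in place of 1 (-0.78, FDR 0.0169). It did so too with quantile normalization (-0.68, FDR 0.00501), so its call depends on the processing. Of all genes, 0.787% were differentially expressed and lower in MY vs. MO, and 0.517% in WO vs. MO. In bulk tissue, fewer cells of a type and less RNA per cell cannot be told apart.

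**Figure D1:**
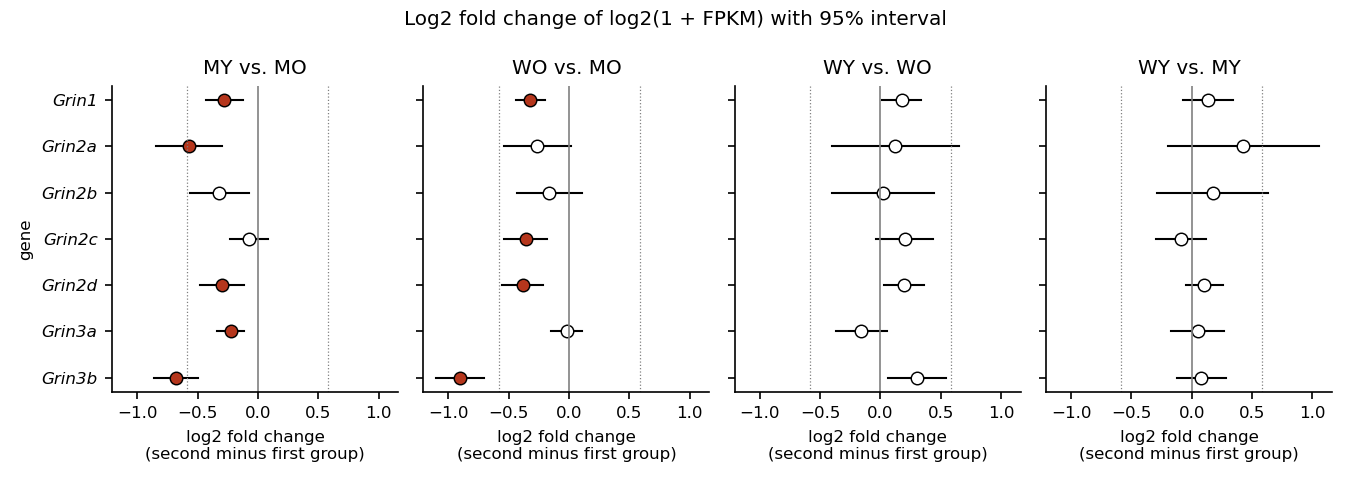
Log2 fold change of each NMDA receptor subunit gene in the comparisons of age and of genotype, with 95% confidence intervals. Filled points passed FDR ≤ 0.05.

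**Figure D2:**
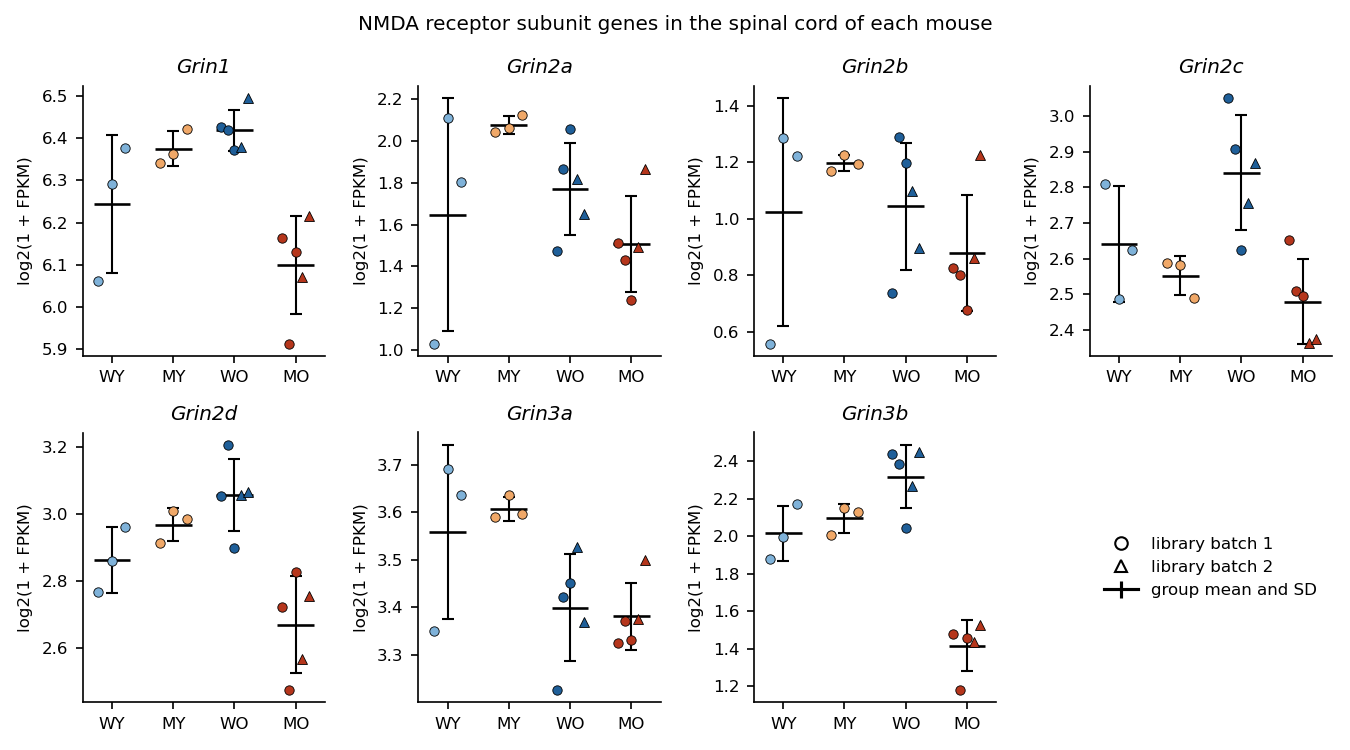
Log2(1 + FPKM) of the 7 genes in every mouse of the WY, MY, WO and MO groups.

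*Grin1* encodes the obligatory GluN1 subunit. Its log2(1 + FPKM) was 6.06, 6.29 and 6.38 in WY1 to WY3 and 6.34, 6.36 and 6.42 in MY1 to MY3. The old mice had 6.43, 6.42, 6.37, 6.38 and 6.50 in WO1 to WO5, and 6.16, 5.91, 6.13, 6.07 and 6.21 in MO1 to MO5. Every MO mouse lay below every WO and MY mouse, while WY1 lay among the MO mice. *Grin1* fell by 0.32 in WO vs. MO (SE 0.0556, 95% confidence interval -0.44 to -0.20, FDR 0.0017), with -0.34 in batch 1 and -0.29 in batch 2. Its mean FPKM was 84.6 (SD 2.93) in WO and 67.7 (SD 5.37) in MO mice, or 66.3 (SD 5.04) without MO5. In MY vs. MO the log2 fold change was -0.28 (SE 0.0678, interval -0.43 to -0.12, FDR 0.0185), and -0.31 with the MO mice of batch 1 alone. Without MO5 the values were -0.35 (FDR 0.00162) in WO vs. MO and -0.31 (FDR 0.015) in MY vs. MO. The MY vs. MO call was lost without MY1 (-0.29, FDR 0.0549), MY2 (-0.28, FDR 0.0574) or MY3 (-0.25, FDR 0.0796), each time with 2 MY mice left.

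*Grin1* shares 1307 nt of exon with *Grin1os*, a gene on the opposite strand. *Grin1os* fell by 0.31 in WO vs. MO (FDR 0.00517) and had -0.21 in MY vs. MO (FDR 0.111). The library kit kept strand, but whether strand was used when fragments were assigned is not stated in the sources used here. Unless it was, reads of the shared stretch cannot be told apart.

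*Grin2a* encodes GluN2A, which gives fast-deactivating receptors and increases with maturation in much of the nervous system. It had 1.03, 2.11 and 1.80 in WY1 to WY3, 2.04, 2.06 and 2.12 in MY1 to MY3, and 1.47, 1.86, 2.05, 1.82 and 1.65 in WO1 to WO5. In MO1 to MO5 it had 1.51, 1.43, 1.24, 1.49 and 1.87. All MO mice were below all MY mice, but the MO and WO ranges overlapped, and WY1 was the lowest of all. *Grin2a* fell by 0.57 in MY vs. MO (SE 0.119, interval -0.84 to -0.29, FDR 0.00988), 1.48-fold, with -0.68 in batch 1. Without MO5 it fell by 0.66 (FDR 0.00134), and it reached 1.5-fold in 7 of the 17 alternatives tried, all of which kept the call. In WO vs. MO it had -0.26 (SE 0.127, interval -0.54 to 0.02, FDR 0.154), with -0.40 in batch 1 and -0.05 in batch 2. Without MO5 that value was -0.35 and passed (FDR 0.0435). The batch 2 value includes MO5 (1.87), which lay above WO4 (1.82) and WO5 (1.65), whereas MO4 (1.49) lay below both.

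*Grin2b* encodes GluN2B, prominent in immature and extrasynaptic receptors, and was the lowest of the 7. It had 0.56, 1.29 and 1.22 in WY1 to WY3 and 1.17, 1.23 and 1.19 in MY1 to MY3. The old mice had 0.74, 1.29, 1.20, 1.10 and 0.89 in WO1 to WO5, and 0.83, 0.80, 0.68, 0.86 and 1.23 in MO1 to MO5. MO1 to MO4 were below every MY mouse, whereas MO5 lay within the MY range. *Grin2b* had -0.32 in MY vs. MO (SE 0.109, interval -0.57 to -0.07, FDR 0.0646). Without MO5 it was -0.40 and passed (FDR 0.00233), as it did in batch 1 alone (-0.43, FDR 0.00265) and with batch as a term (FDR 0.0134). It also passed with the replicate number as a block (FDR 0.0121) and with quantile normalization (-0.44, FDR 0.0158). These were 5 of the 17 alternatives tried. Among the others, it did not pass in 1 fit of all groups (FDR 0.176) or without MY1, MY2 or MY3 (FDR 0.147, 0.170 and 0.157). In WO vs. MO it had -0.16 (SE 0.122, interval -0.44 to 0.11, FDR 0.368), with -0.31 in batch 1 and 0.05 in batch 2, and -0.25 without MO5 (FDR 0.119). The batch 2 value includes MO5 (1.23), which lay above WO4 (1.10) and WO5 (0.89), whereas MO4 (0.86) lay below both. With a pseudocount of 0.1 in place of 1, *Grin2b* had -0.59 in MY vs. MO (FDR 0.0744), -0.31 in WO vs. MO (FDR 0.368) and -0.67 in the difference of the age effects described below (FDR 0.334).

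*Grin2a* and *Grin2b* have the longest transcripts of the family, 14634 and 24060 nt, and libraries differed in how long transcripts fared against short ones. The median deviation of 782 genes with a longest transcript of at least 8000 nt, minus that of 2732 genes of at most 2000 nt, was taken in each mouse. It was -0.28, 0.23 and 0.00 in WY1 to WY3, 0.19, 0.10 and 0.14 in MY1 to MY3, and -0.10, 0.07, 0.07, 0.16 and 0.11 in WO1 to WO5. In MO1 to MO5 it was 0.05, -0.24, -0.15, -0.28 and -0.05, so the MO mice were below all MY mice, and WY1 was as low as MO4. With the trend on transcript length removed, *Grin2a* fell by 0.39 in MY vs. MO (FDR 0.0258) and *Grin2b* had -0.11 (FDR 0.44). In WO vs. MO *Grin2a* then had -0.14 (FDR 0.371), and the difference for *Grin2b*, -0.16 before, was gone (0.00, FDR 1.00). The difference of the age effects for *Grin2b*, described below, was -0.08 (FDR 0.792) with the trend removed. The long-minus-short value itself differed between MO and MY mice. Removing the trend therefore cannot tell library differences apart from group differences shared by long transcripts.

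**Figure D3:**
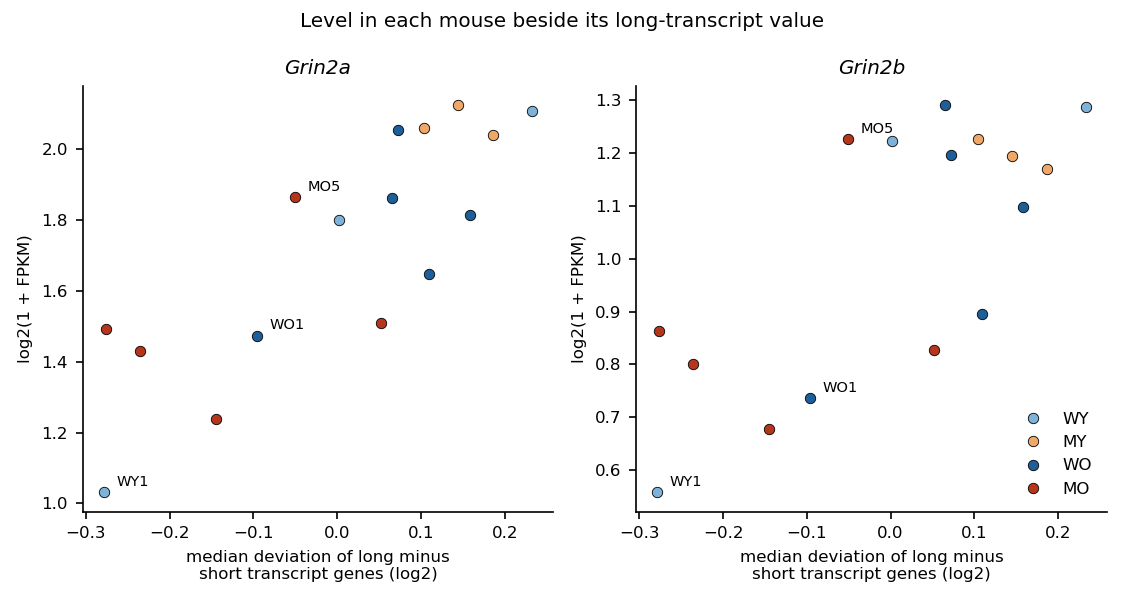
*Grin2a* and *Grin2b* in each mouse against the median deviation of genes with long transcripts minus that of genes with short ones.

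*Grin2c* encodes GluN2C, found in cerebellar granule cells and, elsewhere, largely in glia. It had 2.81, 2.49 and 2.63 in WY1 to WY3, 2.59, 2.58 and 2.49 in MY1 to MY3, and 3.05, 2.91, 2.63, 2.76 and 2.87 in WO1 to WO5. In MO1 to MO5 it had 2.65, 2.51, 2.50, 2.36 and 2.38. WO mice lay above MO mice except that WO3 was just below MO1, and the MY mice lay within the MO range. *Grin2c* fell by 0.36 in WO vs. MO (SE 0.0819, interval -0.54 to -0.18, FDR 0.00775), with -0.31 in batch 1 and -0.44 in batch 2. With batch 1 alone the call was lost (FDR 0.13). Without MO5 it was -0.34 (FDR 0.0203). In MY vs. MO it had -0.07 (SE 0.0697, interval -0.23 to 0.09, FDR 0.507), which was 0.00 in batch 1, and -0.05 without MO5 (FDR 0.692).

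Astrocyte markers are given beside *Grin2c*. Of 10, 5 rose in MY vs. MO and 7 in WO vs. MO, and 5 and 6 without MO5, while 0 fell. Of those that did not pass, *S100b* had -0.28 and -0.21 (FDR 0.1 and 0.102). Their summed FPKM was 3320, 3085 and 3033 in WY1 to WY3, 2962, 3021 and 2935 in MY1 to MY3, and 2741, 2621, 2764, 2827 and 2587 in WO1 to WO5. In MO1 to MO5 it was 4175, 5075, 4566, 4173 and 4176, and *Gfap* was the most abundant of the 10 (mean FPKM 1289). No astrocyte marker was near 0, and their part in the result was not tested. *Grin2c* also belongs to the study's list of 60 astrocyte genes, of which 26 rose and 3 fell in MY vs. MO, and 29 rose and 7 fell in WO vs. MO. That list was used on these samples by the study and is not independent evidence of its direction. Its summed FPKM was 3955, 3961 and 3859 in WY1 to WY3, 3822, 3848 and 3775 in MY1 to MY3, 3814, 3677, 3800, 3837 and 3715 in WO1 to WO5, and 4517, 4532, 4163, 4206 and 4151 in MO1 to MO5, with *Aldoc* the most abundant gene and none near 0.

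*Grin2d* encodes GluN2D, which gives slowly deactivating receptors with little magnesium block and is found in interneurons. It had 2.77, 2.86 and 2.96 in WY1 to WY3 and 2.91, 3.01 and 2.98 in MY1 to MY3. The old mice had 3.05, 3.21, 2.90, 3.06 and 3.06 in WO1 to WO5, and 2.72, 2.48, 2.83, 2.57 and 2.75 in MO1 to MO5. All MO mice were below all WO and MY mice, and only WY1 of the young mice lay within the MO range. *Grin2d* fell by 0.39 in WO vs. MO (SE 0.075, interval -0.55 to -0.22, FDR 0.00331), with -0.38 in batch 1 and -0.40 in batch 2, and by 0.41 without MO5 (FDR 0.00555). With batch 1 alone the WO vs. MO call was lost (FDR 0.0793). In MY vs. MO it fell by 0.30 (SE 0.0807, interval -0.48 to -0.11, FDR 0.0277), with -0.29 in batch 1, and by 0.32 without MO5 (FDR 0.0337). That call was lost without MY1 (-0.33, FDR 0.0657), MY2 (-0.28, FDR 0.0979) or MY3 (-0.29, FDR 0.0937), in batch 1 alone (FDR 0.0654), with batch as a term (FDR 0.0621), with the replicate number as a block (FDR 0.0881) and with the length trend removed (-0.24, FDR 0.0516). *Grin2d* shares 643 nt of exon with *Gm45441* on the opposite strand, and *Grin2c* 91 nt with *Gm25837*. *Grin2b* shares 143 nt with *Gm14329*, 86 nt with *Gm22892* and 49 nt with *Gm26653*, also on the opposite strand. None of these overlapping genes was analysed here, and the limit on strand given for *Grin1* holds for them too.

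Inhibitory interneuron markers, set beside *Grin2d*, fell for 5 of 8 genes in MY vs. MO and 3 of 8 in WO vs. MO (5 and 4 without MO5), with 0 rising. Of 8 excitatory interneuron markers, 2 rose and 2 fell in MY vs. MO, and 3 rose and 2 fell in WO vs. MO; without MO5 it was 1 and 2, and 2 and 2. *Pvalb* was the most abundant inhibitory marker and *Slc17a6* the most abundant excitatory one, *Sim1* was near 0, and the part of these cells in the result was not tested. The summed FPKM of the inhibitory markers was 295, 338 and 355 in WY1 to WY3, 330, 330 and 347 in MY1 to MY3, 351, 361, 377, 337 and 351 in WO1 to WO5, and 261, 305, 299, 323 and 316 in MO1 to MO5. That of the excitatory markers was 183, 156 and 178 in WY1 to WY3, 163, 173 and 170 in MY1 to MY3, 168, 190, 184, 154 and 163 in WO1 to WO5, and 157, 173, 164, 185 and 174 in MO1 to MO5.

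*Grin3a* encodes GluN3A, a subunit of juvenile synapses and of glycine-gated receptors. It had 3.35, 3.69 and 3.64 in WY1 to WY3, 3.59, 3.64 and 3.60 in MY1 to MY3, and 3.23, 3.42, 3.45, 3.53 and 3.37 in WO1 to WO5. In MO1 to MO5 it had 3.33, 3.37, 3.33, 3.38 and 3.50. The MO mice were all below the MY mice but lay inside the range of the WO mice. *Grin3a* fell by 0.23 in MY vs. MO (SE 0.0478, interval -0.34 to -0.12, FDR 0.0101), with -0.26 in batch 1, and by 0.26 without MO5 (FDR 0.00346). With the length trend removed it had -0.12 and the call was lost (FDR 0.125). In WO vs. MO it had -0.02 (SE 0.0578, interval -0.15 to 0.11, FDR 0.859), a direction that reversed to 0.05 (FDR 0.477) with the length trend removed and to 0.01 without WO4. The WO vs. MO values within batches were -0.02 and -0.01, and the value without MO5 was -0.05 (FDR 0.608).

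*Grin3b* encodes GluN3B and gave the largest difference of the family. Its log2(1 + FPKM) was 1.88, 2.00 and 2.17 in WY1 to WY3 and 2.01, 2.15 and 2.13 in MY1 to MY3. The old mice had 2.44, 2.39, 2.04, 2.27 and 2.45 in WO1 to WO5, and 1.48, 1.18, 1.46, 1.43 and 1.53 in MO1 to MO5. Every MO mouse was below every mouse of the other groups. *Grin3b* fell by 0.90 in WO vs. MO (SE 0.0888, interval -1.10 to -0.71, FDR 5.57e-05), 1.87-fold, with -0.92 in batch 1 and -0.88 in batch 2. In MY vs. MO it fell by 0.68 (SE 0.08, interval -0.86 to -0.50, FDR 0.000785), 1.60-fold, with -0.72 in batch 1. Without MO5 the values were -0.93 (FDR 0.000189) and -0.71 (FDR 0.00165). In FPKM, the WO mice had 4.43, 4.23, 3.12, 3.82 and 4.46 and the MO mice 1.79, 1.26, 1.74, 1.70 and 1.88, with means of 4.01 (SD 0.559) and 1.68 (SD 0.239), or 1.62 (SD 0.242) in MO mice without MO5. The call held under every alternative tried in both comparisons.

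*Grin3b* shares 1059 nt of exon with *Tmem259* on the opposite strand, and *Tmem259* had 0.05 in MY vs. MO (FDR 0.489) and -0.03 in WO vs. MO (FDR 0.779). Its log2(1 + FPKM) means of 5.51 in MY, 5.59 in WO and 5.56 in MO mice were far above those of *Grin3b*. The limit on strand given for *Grin1* holds here as well.

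Motor neuron markers stood beside *Grin3b*. Of 11 markers, 7 fell and 1 rose in each of MY vs. MO and WO vs. MO, with medians of -0.30 and -0.49, and without MO5 6 fell in the first and 7 in the second. *Chodl* had -1.57 and -1.74, *Mmp9* -0.71 and -0.70, *Chat* -0.41 and -0.67 and *Slc18a3* -0.31 and -0.51, whereas *Calca*, the gene that rose, had 1.10 and 1.38. The summed FPKM of the 11 was 203, 221 and 231 in WY1 to WY3, 216, 236 and 206 in MY1 to MY3, 248, 213, 218, 204 and 215 in WO1 to WO5, and 244, 331, 190, 242 and 252 in MO1 to MO5. *Calca* was the most abundant of them (mean FPKM 71.7). Its log2(1 + FPKM) was 5.70, 5.57, 5.61, 5.22 and 5.21 in WO1 to WO5, and 6.83, 7.60, 6.22, 6.61 and 6.95 in MO1 to MO5. The sum includes *Calca*, so it does not show the direction of the markers that fell. None was near 0, and their part in the result was not tested. Of the 5 genes of the study's motor neuron list, 3 fell in each comparison, but the list was used on these samples by the study and is not independent evidence. Their summed FPKM was 14.0, 19.3 and 19.8 in WY1 to WY3, 18.8, 19.5 and 18.2 in MY1 to MY3, 23.8, 21.6, 21.9, 21.7 and 23.0 in WO1 to WO5, and 16.1, 14.7, 13.0, 15.8 and 14.3 in MO1 to MO5, with *Chat* the most abundant.

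How far the change from young to old mice differed by genotype, MO minus MY less WO minus WY, was fitted on the 16 mice together. The MO mice were at end stage, so age and disease stage cannot be told apart in MO minus MY. This difference of the age effects passed for 3 genes, all negative: *Grin3b* at -0.98 (SE 0.139, interval -1.28 to -0.69, FDR 0.000278), *Grin2d* at -0.49 (SE 0.112, interval -0.73 to -0.25, FDR 0.0077) and *Grin1* at -0.45 (SE 0.101, interval -0.67 to -0.24, FDR 0.00657). Of all genes, 7.19% passed below 0 and 10.5% above 0. *Grin3b* was the only one of the 3 with a difference of at least 1.5-fold (1.98-fold). *Grin2a* had -0.69 (SE 0.276, FDR 0.101), *Grin2b* -0.34 (FDR 0.349), *Grin2c* -0.27 (FDR 0.171) and *Grin3a* -0.07 (FDR 0.734). *Grin2a* passed without WY2 (-0.92, FDR 0.0205), and without WY1, where it was lowest, it had -0.38 (FDR 0.265) and *Grin2b* -0.11 (FDR 0.793). The difference for *Grin3a* reversed to 0.06 with the length trend removed and to 0.04 without WY1. Without MO5, *Grin1* had -0.48 (FDR 0.00525), *Grin2d* -0.51 (FDR 0.00844) and *Grin3b* -1.01 (FDR 0.000435), and the other genes had -0.78 (*Grin2a*, FDR 0.0629), -0.43 (*Grin2b*, FDR 0.202), -0.25 (*Grin2c*, FDR 0.236) and -0.10 (*Grin3a*, FDR 0.597).

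Among control mice, 0 of the 7 genes passed in WY vs. WO (limma), where 1.12% of all genes did, and 3 of the 7 had an unadjusted p below 0.05, as did 2447 of the 18167 genes. These were *Grin3b* at 0.30 (interval 0.06 to 0.54, FDR 0.246), *Grin2d* at 0.19 (FDR 0.28) and *Grin1* at 0.18 (FDR 0.325). *Grin2c* had 0.20 (FDR 0.465), *Grin2a* 0.12 (interval -0.40 to 0.65, FDR 0.895), *Grin2b* 0.02 (FDR 0.983) and *Grin3a* -0.16 (FDR 0.521). Leaving out WY2 gave 0.12 for *Grin2c* and -0.09 for *Grin3a*. Without WY1 *Grin1* had 0.08 and *Grin3a* -0.26, and the directions of *Grin2a* and *Grin2b* turned, to -0.18 and -0.21, and that of *Grin2b* also without WO2 (-0.04), without WO3 (-0.02) and with the length trend removed (-0.03). Between young mice, WY vs. MY, 0 of the 7 passed (limma) and 0 had an unadjusted p below 0.05, while 0.0055% of all genes passed and 1301 had an unadjusted p below 0.05. *Grin2a* had 0.43 (interval -0.20 to 1.05, FDR 0.728), *Grin1* 0.13 (FDR 0.739), *Grin3b* 0.08 (interval -0.13 to 0.28, FDR 0.801), *Grin3a* 0.05 (FDR 0.902), *Grin2b* 0.17 (FDR 0.804), *Grin2c* -0.09 (FDR 0.787) and *Grin2d* 0.11 (FDR 0.724). Without WY1, *Grin2a* had 0.12, *Grin1* 0.04, *Grin3b* 0.01, *Grin2d* 0.06 and *Grin2c* 0.00, *Grin2b* and *Grin3a* both turned to -0.06, and *Grin3a* turned to -0.01 with the length trend removed. Other omissions moved values away from 0. Leaving out WY2 gave 0.66 for *Grin2a* and -0.16 for *Grin2c*, and leaving out WY3 gave 0.20 for *Grin1* and 0.16 for *Grin3b*. With 3 mice per group, the intervals given do not show that the young genotypes were alike.

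Set side by side, the values of MY vs. MO and WO vs. MO were farthest apart for *Grin2a* (-0.57 and -0.26) and *Grin2c* (-0.07 and -0.36), and the distance between them was not tested. Group ranges did not overlap, with MO lower, for 5 of the 7 genes in MY vs. MO (*Grin1*, *Grin2a*, *Grin2d*, *Grin3a* and *Grin3b*), beside 15.9% of all genes. In WO vs. MO this held for 3 of the 7 (*Grin1*, *Grin2d* and *Grin3b*), beside 8.65%. Without MO5 it was 6 of the 7 in MY vs. MO, with *Grin2b* added, beside 17.8% of all genes, and the same 3 in WO vs. MO, beside 10.4%.

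Levels of different genes were compared as back-transformed FPKM, which is per transcript length. *Grin1* had the highest mean over the 16 mice (77.0), followed by *Grin3a* (10.1), *Grin2d* (6.43), *Grin2c* (5.27), *Grin3b* (2.97), *Grin2a* (2.38) and *Grin2b* (1.05). By mean log2(1 + FPKM), *Grin1* stood at the 94.2nd percentile of all genes and *Grin2b* at the 25.7th, with *Grin3a* at 60.8, *Grin2d* at 50.8, *Grin2c* at 46.9, *Grin3b* at 37.2 and *Grin2a* at 34.8. *Grin1* exceeded *Grin3a* and *Grin3a* exceeded *Grin2d* in 16 of 16 mice, *Grin2d* exceeded *Grin2c* in 14 of 16 (not in WY1 and MO2), and *Grin3b* exceeded *Grin2a* in 9 of 16. By group, *Grin3b* was the higher in 4 of 5 WO mice (means 4.01 and 2.44) but in 1 of 5 MO mice (1.68 and 1.87), and in 2 of 3 WY and 2 of 3 MY mice.

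The 4 GluN2 genes summed to 13.3, 15.6 and 15.8 FPKM in WY1 to WY3, 15.9, 16.5 and 16.2 in MY1 to MY3, 17.0, 18.8, 16.1, 16.7 and 16.7 in WO1 to WO5, and 13.5, 11.7, 12.7, 11.7 and 13.9 in MO1 to MO5. All MO sums lay below all WO and MY sums, and WY1 lay among the MO mice. *Grin2d* held 42.9% (SD 1.61) of the sum in WO and 42.4% (SD 3.37) in MO mice, *Grin2c* 36.3% (SD 4.12) and 36.3% (SD 3.95), *Grin2a* 14.4% (SD 3.39) and 14.7% (SD 3.00), and *Grin2b* 6.32% (SD 1.75) and 6.68% (SD 1.84). Without MO5 the MO shares were 42.6%, 37.8%, 13.6% and 5.94% in that order. The MY mice had 42.1% of *Grin2d* (SD 0.909), 30.1% of *Grin2c* (SD 1.49), 19.8% of *Grin2a* (SD 0.834) and 7.97% of *Grin2b* (SD 0.123). The WY mice had 42.2% of *Grin2d* (SD 1.89), 35.8% of *Grin2c* (SD 8.23), 14.9% of *Grin2a* (SD 6.74) and 7.07% of *Grin2b* (SD 3.08). Over single mice the share of *Grin2a* ran from 7.83% in WY1 to 21.2% in WY2 and that of *Grin2c* from 28.5% in MY3 to 45.1% in WY1. The shares were described and not tested. WY1 and WY2 had the lowest and highest long-minus-short transcript values of the 16 mice (-0.28 and 0.23). Transcripts of *Grin2a* and *Grin2b* (14634 and 24060 nt) are longer than those of *Grin2c* and *Grin2d* (4895 and 5431 nt). The shares were not recomputed with the length trend removed.

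**Figure D4:**
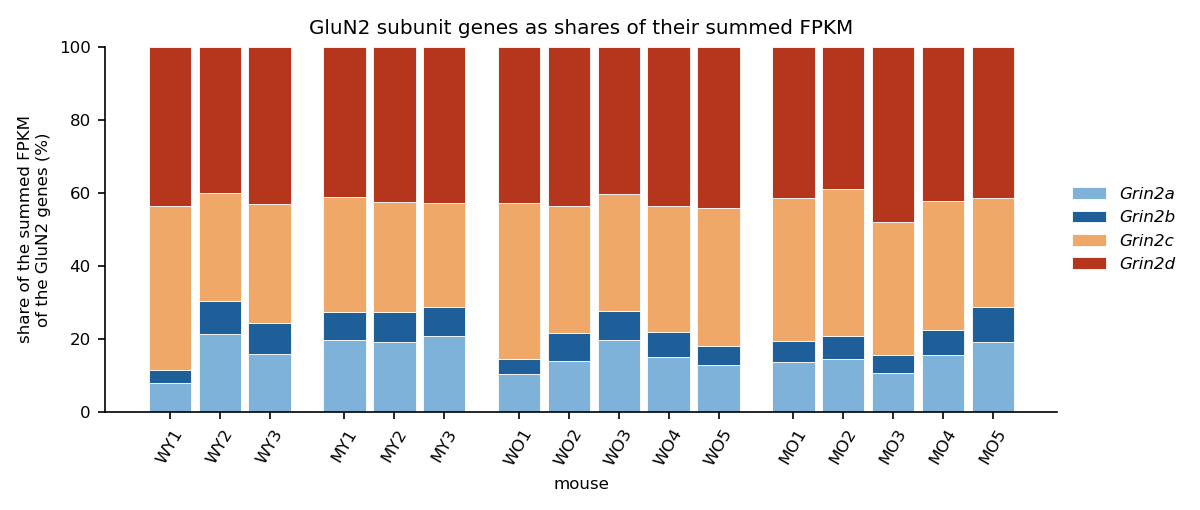
Share of *Grin2a*, *Grin2b*, *Grin2c* and *Grin2d* in their summed FPKM in each mouse.

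Genes that act with the NMDA receptor were counted beside its subunits. The counts stand beside 12.5% of all genes falling and 13.1% rising in MY vs. MO, and 12.9% and 15.0% in WO vs. MO, and no list was tested against these shares. Of 20 scaffold and adaptor genes, 11 fell and 1 rose in MY vs. MO and 10 fell and 1 rose in WO vs. MO (13 and 10 falling without MO5), and 5 of 19 kinase, phosphatase and signalling genes fell in MY vs. MO and 7 in WO vs. MO (7 and 8 without MO5). *Nos1*, whose product is tethered to the receptor by PSD-95, fell by 0.46 in both (FDR 0.000513 and 4.4e-05), and *Cit* fell by 0.46 and 0.41 (FDR 0.0241 and 0.0141). *Nsf*, a vesicle fusion ATPase, fell by 0.29 and 0.33 (FDR 0.00318 and 0.000138).

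Of 23 genes that handle the co-agonists glycine and D-serine, 4 rose and 3 fell in MY vs. MO, and 5 rose and 4 fell in WO vs. MO (3 and 2, then 5 and 4, without MO5). *Slc6a5*, the glycine transporter of glycinergic neurons, fell by 0.84 and 0.78 (FDR 0.00298 and 0.00224), and *Slc7a10*, which exchanges D-serine and small neutral amino acids, by 0.61 and 0.75 (FDR 0.0364 and 0.00304). *Haao*, which makes quinolinate, an NMDA receptor agonist, rose by 0.60 and 0.50 (FDR 0.000428 and 0.000189). Its level was low, with mean log2(1 + FPKM) of 0.45 in WY, 0.29 in MY, 0.39 in WO and 0.89 in MO mice. Of 15 glutamate release and clearance genes, 3 fell in MY vs. MO, and 2 rose and 5 fell in WO vs. MO (3, then 1 and 4, without MO5). *Slc1a3* rose by 0.53 in WO vs. MO (FDR 0.00337) and had 0.29 in MY vs. MO (FDR 0.103), and *Gls2* fell by 0.39 in WO vs. MO (FDR 0.00238) and had -0.21 in MY vs. MO (FDR 0.119). Of 7 kainate and delta receptor genes, 4 fell in MY vs. MO and 2 in WO vs. MO (3 and 2 without MO5), among them *Grik4* (-0.15 and -0.34, FDR 0.0371 and 0.000147) and *Grid1* (-0.26 and -0.24, FDR 0.033 and 0.0229). Of 7 metabotropic glutamate receptor genes, 5 fell in MY vs. MO and 6 in WO vs. MO (5 and 5 without MO5), with *Grm3* at -0.65 and -0.52 (FDR 0.00191 and 0.00141).

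Of 12 general neuron markers, 9 fell in MY vs. MO and 10 in WO vs. MO (8 and 8 without MO5), beside 12.5% and 12.9% of all genes, with medians of -0.26 and -0.32 beside medians of -0.30 and -0.32 for the NMDA receptor genes. Their summed FPKM was 4451, 4966 and 4851 in WY1 to WY3, 5051, 4951 and 5096 in MY1 to MY3, 5623, 4876, 5036, 5073 and 5344 in WO1 to WO5, and 3615, 3799, 3513, 4153 and 3605 in MO1 to MO5. *Snap25* was the most abundant (mean FPKM 1393), none was near 0, and their part in the results was not tested. Of the 71 genes of the study's neuron list used here, 37 fell and 5 rose in MY vs. MO (33 and 5 without MO5), and 31 fell and 7 rose in WO vs. MO (27 and 5), with medians of -0.18 and -0.14. The study used that list on these samples, so it is not independent evidence. Its summed FPKM was 5925, 6492 and 6349 in WY1 to WY3, 6642, 6480 and 6684 in MY1 to MY3, 7190, 6462, 6685, 6618 and 6907 in WO1 to WO5, and 5176, 5455, 5065, 5699 and 5164 in MO1 to MO5, with *Snap25* the most abundant and none near 0.

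Markers of other cell types differed between the groups as well. Of 10 microglia markers, 9 rose in each of the comparisons, also without MO5, with medians of 1.53 and 1.51; their summed FPKM was 188, 162 and 183 in WY1 to WY3, 158, 181 and 172 in MY1 to MY3, 189, 201, 216, 141 and 130 in WO1 to WO5, and 708, 1039, 1287, 655 and 745 in MO1 to MO5. *C1qa* was the most abundant of them and none was near 0. Of 8 oligodendrocyte markers, 3 fell in MY vs. MO (5 without MO5), and 2 fell and 1 rose in WO vs. MO (1 and 1), and their summed FPKM, with *Mbp* the most abundant, set the batch 2 libraries apart, with WO4 the lowest of the 16 mice and WO5, MO4 and MO5 the highest: 16135, 13888 and 14211 in WY1 to WY3, 14617, 14070 and 13730 in MY1 to MY3, 9979, 9269, 9258, 4950 and 23583 in WO1 to WO5, and 6961, 7467, 7579, 21951 and 21371 in MO1 to MO5. Of the study's 35 oligodendrocyte genes, 21 fell in MY vs. MO, 13 of them at least 1.5-fold, and 1 rose, and 13 fell and 4 rose in WO vs. MO (21 and 1, then 12 and 4, without MO5), again on a list used on these samples and not independent. Of 8 oligodendrocyte precursor markers, 4 fell in MY vs. MO and 2 in WO vs. MO, also without MO5, with a summed FPKM of 315.1, 296.1 and 320.7 in WY1 to WY3, 295.3, 298.7 and 300.2 in MY1 to MY3, 257.2, 269.6, 244.2, 252.9 and 269.0 in WO1 to WO5, and 185.2, 211.3, 221.7, 257.2 and 259.7 in MO1 to MO5. Of 6 endothelial markers, 1 rose in MY vs. MO and 3 fell in WO vs. MO, also without MO5, with a summed FPKM of 189.9, 140.0 and 148.0 in WY1 to WY3, 147.0, 145.1 and 136.5 in MY1 to MY3, 233.8, 210.1, 191.1, 150.8 and 163.6 in WO1 to WO5, and 148.3, 148.9, 148.3, 153.6 and 174.6 in MO1 to MO5. *Olig1* and *Slc2a1* were the most abundant of these, no marker of these lists was near 0, and the part of these cells in the results of the NMDA receptor genes was not tested.

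Likeness between genes was measured as the root mean square difference of profiles scaled to mean 0 and SD 1 over the 16 mice, among 13529 other genes. Nearest to *Grin3b* were *Nat8l* (0.235), *Impdh1* (0.247), *Syt3* (0.254), *Iglon5* (0.261) and *Dctn1* (0.269), against a median of 1.35 over all genes. *Grin1* was nearest *Clstn1* (0.214), *Cntnap1* (0.239), *Clstn3* (0.248), *Pcnxl2* (0.248) and *Nfic* (0.256). *Grin2a* was nearest *Kcnj6* (0.249), *Glra1* (0.255), *Pcdh7* (0.275), *Arhgap35* (0.285) and *Dnajb14* (0.286), and *Grin2b* nearest *Kcnj6* (0.319), *Grin2a* (0.333), *Tenm1* (0.350), *Chsy3* (0.399) and *Ksr2* (0.404).

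The nearest genes of *Grin2c* were *Hapln2* (0.339), *Wnk4* (0.351), *Eogt* (0.398), *Mapre3* (0.404) and *Epas1* (0.411), and those of *Grin2d* included *Caskin1* (0.349), *Adgrb1* (0.351), *Usp19* (0.361) and *Camta2* (0.363). *Grin3a* lay nearest *Stam2* (0.304), *Pgap1* (0.366), *Pank3* (0.370), *Pik3r3* (0.376) and *Fat1* (0.394). Between the 7 genes themselves, *Grin2a* and *Grin2b* were closest (0.333), then *Grin2d* and *Grin3b* (0.369), *Grin1* and *Grin2d* (0.396) and *Grin1* and *Grin3b* (0.411), and *Grin2c* and *Grin3a* were farthest apart (1.64).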

How the data were processed

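Spinal cord RNA-seq of 16 transgenic mice in 4 groups and 2 library batches was used, with 1 library per mouse. The values in the deposited table are log2(1 + FPKM), which the authors made with Trimmomatic, TopHat on mm10 and Cufflinks. The authors dropped genes whose FPKM was 0 in 8 or more mice and corrected batch with ComBat. Of the values, 915 were below 0 after that correction, none of them in the 7 genes. Depth per gene is unknown, since counts were not analysed here, so the error of a value is known only from how much mice of a group differ. All columns of values were used.

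The package limma 3.58.1 (R 4.3.3; lmFit, then eBayes; two-sided) was fitted over 18167 genes to the 2 groups of each comparison: MY vs. MO and WO vs. MO, then WY vs. MY and WY vs. WO. Fold changes are of the group named second over the one named first. The difference of the age effects came from 1 fit of all 4 groups. Every FDR is Benjamini-Hochberg over all genes; p values are unadjusted. A gene rose or fell at FDR ≤ 0.05 and was differentially expressed with a fold change of at least 1.5 as well. The fit was tested on simulated data. Python 3.11.15 with NumPy 2.4.6, pandas 2.3.3, SciPy 1.17.1 and matplotlib 3.10.9 was used for the rest. Transcript lengths and positions came from GENCODE M21 on GRCm38 for 17419 genes. FPKM was back-transformed, and likeness used genes with a mean of at least 1.

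Named were all 7 subunit genes, the 5 genes most alike to each, and of each list of partner genes those that passed with at least 1.5-fold (at most 4), or otherwise the 2 with the largest WO vs. MO difference. Of the genes this rule names, 2 are not reported here. *Grin1os*, *Tmem259* and the single marker genes were named after their values were seen. The members and lists were chosen with earlier results of these data known. Alternatives were batch 1 only, batch as a term, 1 fit of all groups, a pseudocount of 0.1, genes with a mean of at least 1, an eBayes prior with an intensity trend, quantile normalization, leaving out each mouse in turn, and a block for the replicate number. Added after the data were seen were removal of the transcript length trend by lowess (span 0.3), leaving out WY1 and WO1 together, and the list counts without MO5.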

Additional observations from a re-analysis of the deposited data

Results flagged for a closer look

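In the MO group, *Grin3a* of MO5 (3.50 in log2(1 + FPKM)) lay far from the other 4 mice (3.33 to 3.38), and *Grin3b* of MO2 (1.18) lay far from its other 4 (1.43 to 1.53). Both passed Dixon's test in 14 tests, and chance alone picks out about 1 in 20 groups. The difference of the age effects, MO minus MY less WO minus WY, passed for *Grin1* (-0.45), *Grin2d* (-0.49) and *Grin3b* (-0.98). The MO mice were at end stage, so age and disease stage cannot be told apart in it. The sources of these differences were not tested.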

How the results depend on the processing

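*Grin3b* kept its call in 17 of 17 settings of MY vs. MO (-0.94 to -0.62), 19 of 19 of WO vs. MO (-1.21 to -0.84) and 25 of 25 of the difference of the age effects (-1.31 to -0.88). *Grin1* kept its call in 14 of 17, 19 of 19 and 25 of 25, *Grin2d* in 10 of 17, 18 of 19 and 25 of 25, *Grin2a* in 17 of 17 of MY vs. MO, *Grin3a* in 16 of 17 of MY vs. MO and *Grin2c* in 18 of 19 of WO vs. MO. In MY vs. MO 3 subunit genes passed with the length trend removed (4082 of 17419 genes), and 3 to 6 with 1 mouse left out (2586 to 5130 of all genes; 3 without MY1, MY2 or MY3, with 2586 to 3063); in WO vs. MO 2 passed in batch 1 only, where fewer mice were fitted and 2612 of all genes passed in place of 5075. *Grin2c* in MY vs. MO turned to 0.000588 in batch 1 only, with batch as a term and with the replicate block. With the length trend removed, *Grin3a* turned to 0.053 in WO vs. MO, -0.0075 in WY vs. MY and 0.061 in the difference of the age effects, and *Grin2b* to -0.031 in WY vs. WO. With 1 mouse left out, *Grin3a* ranged from -0.062 to 0.013 in WO vs. MO, -0.056 to 0.11 in WY vs. MY and -0.13 to 0.038 in the difference of the age effects; *Grin2b* from -0.21 to 0.15 in WY vs. WO and -0.058 to 0.31 in WY vs. MY; and *Grin2a* from -0.18 to 0.35 in WY vs. WO. Without WY1 and WO1, WY vs. WO gave -0.11 (*Grin2a*) and -0.13 (*Grin2b*). Under quantile normalization the *Grin2b* share in MY was 8.36%. The cause was not tested. The replicate block gave 5 subunit genes in MY vs. MO and 4 in WO vs. MO, 0 in WY vs. WO and in WY vs. MY, and 3 for the difference of the age effects; over all genes it gave 3746, 4115, 68, 1 and 2869 in place of 4646, 5075, 204, 1 and 3210. The labels do not say that replicate numbers pair the mice. Correlations between mice of the same number ran from -0.207 to 0.377, and mice of unlike numbers were not correlated, so these values cannot settle pairing. Fragments per gene are unknown, so what depth limits cannot be given for genes of low FPKM such as *Grin2a* and *Grin2b*. Age and batch are partly tied together in the old mice, most of all in WO4 and WO5.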
